A study of Mus musculus with 4 samples.

Results

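The levels of 10 transcripts of the bone morphogenetic protein (BMP) pathway were compared in mouse embryonic stem cells with and without a hairpin against Cyrano, a long noncoding RNA known for its pairing with miR-7. The 10 rows were taken by name from the 23366 gene symbols counted: the ligand gene Bmp4, the receptor gene Bmpr1a, the signal carriers Smad1 and Smad5, the inhibitors Smad6 and Bambi, and the target genes Id1, Id2, Id3 and Id4. All 10 had enough reads to be among the 13199 genes tested. The cells were of the R1 line, of strain 129X1 x 129S1, kept on gelatin in medium with serum, serum replacement and LIF, the cytokine that sustains self-renewal. In 2 control libraries the vector, which carries a red fluorescent and a puromycin marker, expressed a non-targeting hairpin, and in 2 knockdown libraries it expressed the hairpin against Cyrano. Cells that had taken up the vector by lipid transfection were enriched with puromycin or by flow cytometry. The sources used here do not tell which way served which library or how the replicate cultures were kept apart, so a p-value here reflects only how far these libraries differ from each other, which may be technical.

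BMP ligands are secreted dimers that bring together type I receptors, such as the product of Bmpr1a, and type II receptors. The type I receptor phosphorylates SMAD1 and SMAD5, which enter the nucleus with SMAD4 and switch on target genes. The Id genes are the best-known targets, and their products bind class I bHLH proteins and keep them off DNA. In mouse embryonic stem cells grown with LIF, serum or BMP is known to support self-renewal through Id proteins. Smad6 and Bambi are themselves induced by the signal and damp it, SMAD6 inside the cell and BAMBI as a decoy receptor at the membrane.

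The libraries held 16854403 and 19138196 reads in genes (control 1 and 2) and 22321102 and 20761783 (knockdown 1 and 2). Cyrano, listed as 1700020I14Rik, had 407 and 286 reads in the controls against 89 and 68 in the knockdown libraries, as labelled. Embryonic stem cell markers were abundant, with 9 of 9 measured above 1 CPM and a summed level of 4385 and 4800 CPM in the controls and of 4405 and 4251 CPM after knockdown. CPM are counts scaled to a common library size, with composition factors. Of the 10 fibroblast and feeder markers, 5 stayed under 1 CPM in every library, and Col3a1, Dcn, Lum and Postn had no read. The list summed to between 83.7 and 111.4 CPM, most of it from Fbln1 (40.9 to 52.7 CPM) and Thy1 (20.4 to 48.0 CPM). Twist1 had 2.43 and 5.30 CPM in the controls and 6.81 and 8.04 CPM after knockdown (edgeR adjusted p = 0.36). In bulk RNA, fewer cells of a type and less RNA per cell cannot be told apart.

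None of the 10 transcripts passed the test between knockdown and control, where 0.0833% of all tested genes did (edgeR's quasi-likelihood test, adjusted p under 0.05 over all genes). The lowest adjusted p was 0.39, for Smad1. DESeq2 and limma-voom also called none. In Id3 and Smad1 each knockdown library was below each control, and in Id2 each was above. The other 7 overlapped between the groups. That made 2 of 10 members below, against 21.3% of all tested genes, and 1 of 10 above, against 22.3%. With 10 genes, these counts are near the background. At an unadjusted p under 0.05, Smad1 and Id3 were lower (2 of 10, against 5.43% of all tested genes) and none was higher (6.18%). When library size alone set the scale, neither had such a p. The median log2 fold change of the 10 was 0.07, beside -0.002 for all tested genes.

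The promoters of Id2 and Id3 are shown because these paralogs were the members of the Id family whose groups did not overlap, in opposite directions. Both windows hold the 250 bases before the RefSeq start in GRCm38.p6, read 5′ to 3′ on the gene's strand. Id2 lies on the minus strand at chr12:25096093-25096342 and Id3 on the plus strand at chr4:136143572-136143821. Capitals mark GGCGCC, a GC-rich element bound by BMP SMADs, and GTCTG or its reverse complement CAGAC, the core of the SMAD4 element. The motifs do not overlap each other in these windows.

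Id2: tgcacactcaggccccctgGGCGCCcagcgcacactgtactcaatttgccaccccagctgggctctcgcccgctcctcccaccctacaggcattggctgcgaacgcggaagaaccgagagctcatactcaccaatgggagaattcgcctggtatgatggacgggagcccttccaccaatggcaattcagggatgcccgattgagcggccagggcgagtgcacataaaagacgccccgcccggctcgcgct

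Id3: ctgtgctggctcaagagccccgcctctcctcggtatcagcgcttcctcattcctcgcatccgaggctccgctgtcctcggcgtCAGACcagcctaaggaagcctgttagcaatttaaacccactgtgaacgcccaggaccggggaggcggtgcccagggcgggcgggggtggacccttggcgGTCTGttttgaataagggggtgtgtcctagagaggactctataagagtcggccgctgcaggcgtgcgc

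Id2 held 1 GGCGCC, at -231 from the start, and no GTCTG. Id3 held no GGCGCC and 2 copies of the other motif, CAGAC at -167 and GTCTG at -68. Over 32851 such windows of all genes, 9.59% held GGCGCC and 42.2% held GTCTG on either strand, 11.7% at least 2 copies. Windows of 8 of the 10 members were searched, and those of Id1 and Bambi were not analysed here. GGCGCC was also found once in the Id4, Bmpr1a and second Smad5 windows, and GTCTG once in the third Smad5 window. The windows of Bmp4, Smad1 and Smad6 held neither motif, which says only that these letters are not there.

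Per kilobase of exon, which allows genes to be set beside each other, Id1 and Bmp4 stood far above the other members. Id1 had a mean of 57.3 ± 15.2 CPM per kb and Bmp4 one of 43.95 ± 14.9 (SD over all 4 libraries). Their ranges over the libraries overlapped, but within each of the 4 libraries Id1 was above Bmp4. Id3 followed at 9.85 ± 1.92 CPM per kb, and its range met neither that of Bmp4 nor that of Smad5. From there each neighbour overlapped the next: Smad5 (5.44 CPM per kb), Smad1 (4.24), Bmpr1a (3.76), Id2 (3.20), Smad6 (2.28) and Bambi (2.19). Id4 was lowest at 0.741 ± 0.221 CPM per kb, with all libraries below those of Bambi. Among all tested genes with a length, Id1 stood at the 93.9th percentile of level, Bmp4 at the 91.7th and Id4 at the 19.6th.

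**Figure D1:**
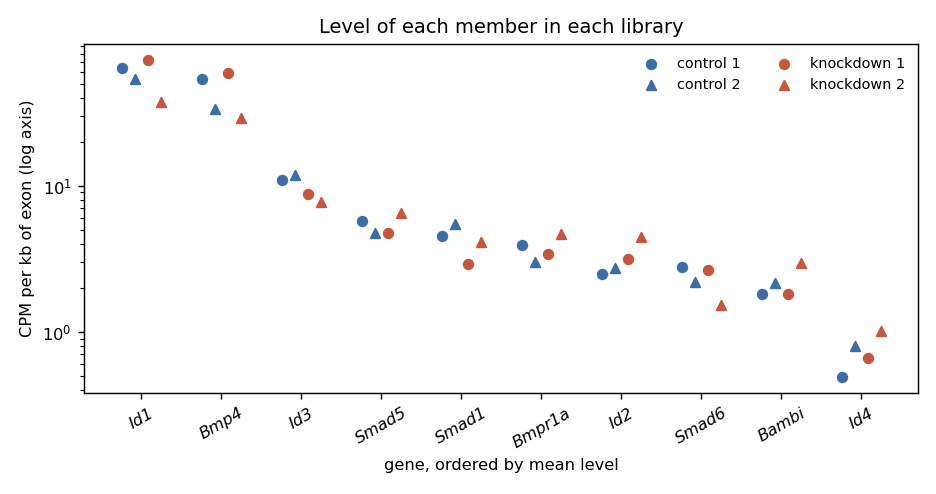
Level of the 10 members in each library, in CPM per kb of exon on a log axis, with blue for control, red for knockdown, circles for library 1 and triangles for library 2 of a group. Id1 and Bmp4 lie above the rest, Id4 lies lowest at a mean of 0.741, and the triangles of Id1, Bmp4 and Smad6 sit below their circles in both colours.

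Bmp4, the ligand, had 120.8 and 75.0 CPM in control 1 and 2 and 133.6 and 65.8 CPM in knockdown 1 and 2. The highest and the lowest value were thus both knockdown libraries, and the groups overlapped. Between means of 97.9 ± 32.4 and 99.7 ± 47.9 CPM (SD, n = 2 each) the difference was 0.03 ± 0.37 in log2 (SE; knockdown minus control), with a 95% interval of -0.86 to 0.91 (edgeR adjusted p = 0.99). Its sign turned with the library left out, from -0.58 without knockdown 1 to 0.45 without knockdown 2. An antisense gene, Gm15217, overlaps Bmp4 in current annotation and had 0 reads in the 4 libraries. The sources used here do not say whether strand entered the counting, so reads of the pair cannot be told apart.

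Bmpr1a, which encodes the type I receptor ALK3, had 25.0 and 19.1 CPM in the controls, against 21.8 and 29.5 CPM after knockdown. The groups overlapped. The log2 fold change was 0.22 ± 0.22 (SE; 95% interval -0.26 to 0.70; edgeR adjusted p = 0.75).

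Smad1 had 28.2 and 34.1 CPM in the controls, against 18.3 and 25.7 CPM after knockdown. Both knockdown values lay below both controls, though the nearest pair differed by less than the spread within either group. From 31.1 ± 4.20 to 21.98 ± 5.24 CPM (SD, n = 2 each), the log2 fold change was -0.50 ± 0.22 (SE; 95% interval -0.97 to -0.036), with an unadjusted p of 0.037 and an adjusted p of 0.39 by edgeR. Leaving out a library kept it negative, between -0.76 and -0.28.

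Smad5, a close paralog that carries the same signal, had 42.5 and 35.3 CPM in the controls and 35.1 and 48.5 CPM after knockdown. Its highest and lowest values were both in the knockdown group. The log2 fold change was 0.10 ± 0.20 (SE; 95% interval -0.32 to 0.53; edgeR adjusted p = 0.88). Reads of Smad5 per read of Smad1, a ratio that no scaling enters, were 1.51 and 1.04 in the controls, against 1.92 and 1.89 after knockdown. The groups did not overlap in this ratio, which was looked at after the values were seen. An exact permutation test of 2 libraries against 2 cannot go below p = 0.333, so single ratios were not tested.

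Smad6, the inhibitory Smad, had 8.94 and 6.99 CPM in the controls and 8.47 and 4.88 CPM after knockdown, from 105 to 189 reads a library. Knockdown 2 was lowest, and knockdown 1 lay between the controls. The log2 fold change was -0.25 ± 0.33 (SE; 95% interval -0.96 to 0.45; edgeR adjusted p = 0.81). Bambi, the decoy receptor gene, was instead highest in knockdown 2. It had 9.25 and 11.0 CPM in the controls and 9.27 and 15.0 CPM after knockdown, a log2 fold change of 0.26 ± 0.28 (SE; 95% interval -0.35 to 0.87; edgeR adjusted p = 0.76).

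Among the Id genes, Id1 had 74.7 and 62.9 CPM in the controls, against 84.5 and 43.6 CPM after knockdown. The knockdown libraries enclosed the controls, as in Bmp4. The log2 fold change was -0.10 ± 0.27 (SE; 95% interval -0.71 to 0.51; edgeR adjusted p = 0.93), and it was -0.66 without knockdown 1 and 0.30 without knockdown 2.

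Id3 had 19.6 and 21.3 CPM in the controls, against 15.8 and 13.8 CPM after knockdown. The groups did not overlap, and it had the smallest spread within groups of the Id genes relative to its level. From 20.5 ± 1.24 to 14.8 ± 1.43 CPM (SD, n = 2 each), a 1.38-fold difference, the log2 fold change was -0.47 ± 0.21 (SE; 95% interval -0.93 to -0.0038), with an unadjusted p of 0.048 and an adjusted p of 0.43 by edgeR. It stayed negative without any 1 library, between -0.58 and -0.37. Corrected for the length and GC content of transcripts it was -0.57 ± 0.19 (edgeR adjusted p = 0.27). The same correction gave smaller changes for Id2, at 0.41 ± 0.26 (0.58), and Smad1, at -0.45 ± 0.19 (0.39). For Id1 it gave -0.23 ± 0.29 (0.81).

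Id2 had 6.02 and 6.62 CPM in the controls, against 7.75 and 10.8 CPM after knockdown, from 99 to 233 reads. Both knockdown values lay above both controls, and they differed more from each other than the controls did. The log2 fold change was 0.55 ± 0.29 (SE; 95% interval -0.076 to 1.18), with an unadjusted p of 0.080 and an adjusted p of 0.49 by edgeR. Id4, the least abundant, had 31 and 58 reads in the controls and 57 and 84 after knockdown. Its levels of 1.89, 3.07, 2.55 and 3.90 CPM overlapped, and the log2 fold change of 0.37 ± 0.44 (SE) had an interval of -0.57 to 1.32 (edgeR adjusted p = 0.78). The libraries of a group differed by 1.63-fold and 1.53-fold.

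**Figure D2:**
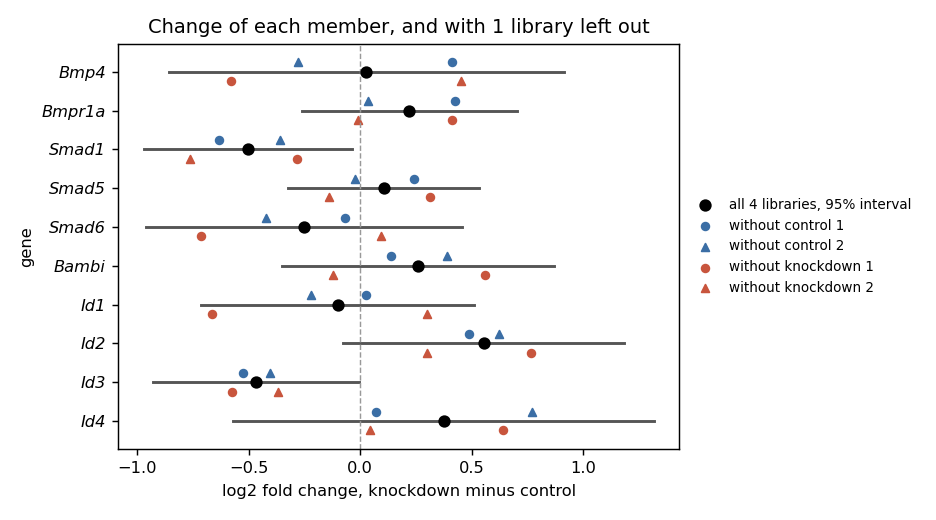
Log2 fold change of each member, knockdown minus control, with all 4 libraries (black point, 95% interval as a line) and with 1 library left out (blue for a left-out control, red for a left-out knockdown library, circle for 1 and triangle for 2). Smad1, Id2, Id3 and Id4 keep their sign in every case, whereas Bmp4 spans -0.58 to 0.45.

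Counted per kilobase, the Id transcripts summed to 78.3 and 69.7 CPM per kb in the controls, against 85.5 and 50.8 CPM per kb after knockdown. Id1 made up 82.3% and 77.9% of this sum in the controls and 85.2% and 74.1% after knockdown. Id2 made up 3.16% and 3.90% in the controls, 3.72% in knockdown 1 and 8.75% in knockdown 2. The library with the smallest sum therefore held the largest share of Id2. The ratio of Id3 to Id2 reads was 3.25 and 3.22 in the controls, against 2.04 and 1.27 in the knockdown libraries. That the groups did not overlap follows from Id3 being below and Id2 above both controls in each knockdown library. The ratio therefore adds nothing to the values of the 2 genes. The promoters of Id2 and Id3, printed above, hold different SMAD motifs, and no relation to these values was tested.

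**Figure D3:**
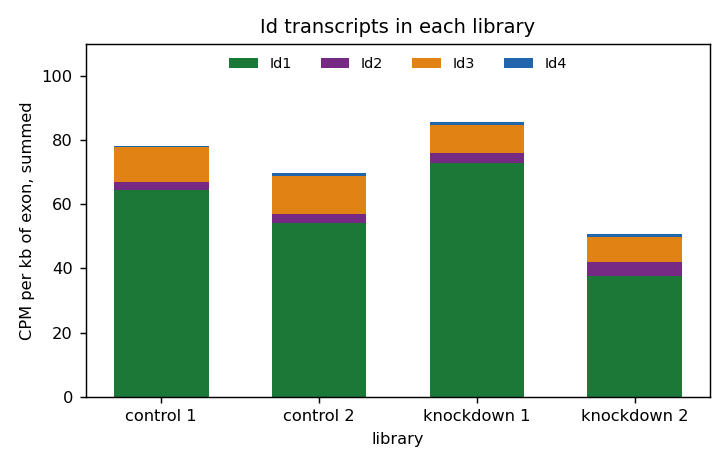
Levels of Id1 to Id4 in each library, stacked, in CPM per kb of exon. Id1 fills most of each bar, and the bar of knockdown 2 is the shortest at 50.8.

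Bmp4, Id1 and Smad6 differed within groups, in the same direction in both: library 2 was below library 1. Control 2 had 1.61-fold less Bmp4 than control 1, 1.19-fold less Id1 and 1.28-fold less Smad6. Knockdown 2 had 2.03-fold less Bmp4 than knockdown 1, 1.94-fold less Id1 and 1.74-fold less Smad6. Such distances between the knockdown libraries were reached by 7.04%, 7.88% and 11.0% of tested genes, respectively. Reads of Id1 per read of Bmp4 stayed between 0.618 and 0.839 in the 4 libraries. The opposite order held in both pairs for Id2, Id4, Bambi and Smad1, with 1.10-fold, 1.63-fold, 1.19-fold and 1.21-fold more in control 2 than in control 1 and 1.40-fold, 1.53-fold, 1.62-fold and 1.41-fold more in knockdown 2 than in knockdown 1. Smad5 and Bmpr1a had 1.38-fold and 1.35-fold more in knockdown 2 but less in control 2, and Id3 had less in knockdown 2 and more in control 2. The grouping of these genes was made after their values were seen and gets no test.

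**Figure D4:**
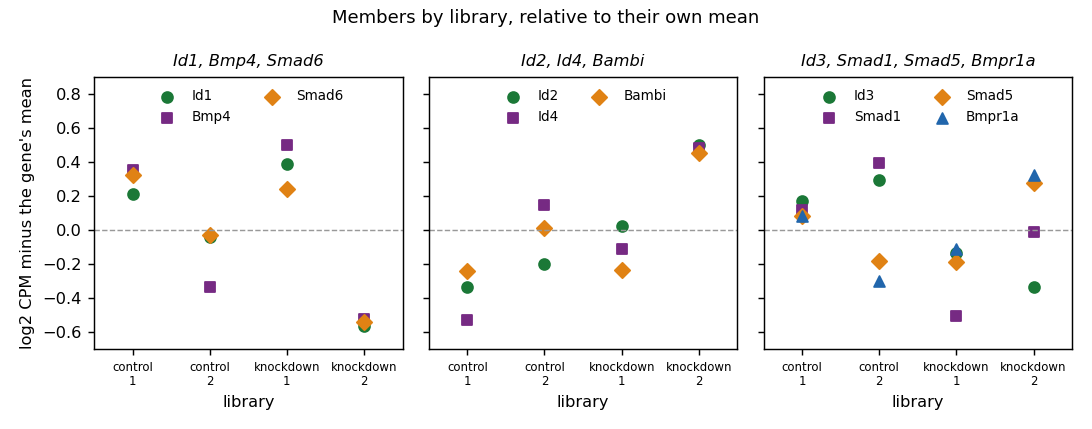
Log2 CPM of the members in each library, minus the mean of the gene over the 4 libraries. Within each group Id1, Bmp4 and Smad6 are higher in library 1 than in library 2, and they are lowest in knockdown 2, where Id2, Id4 and Bambi are highest.

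Likeness to Id1 was measured over the 4 libraries as the root mean square difference in centred log2 CPM, among 8378 genes with a mean of at least 10 CPM. The 5 nearest were Hs3st3b1 (0.047), Mb21d2 (0.049), Nab2 (0.053), Fam195a (0.065) and Rhpn2 (0.075). Smad6, which is under that level, would have ranked 8 at 0.092, and Bmp4 ranked 129 at 0.17. Id3 ranked 2248 at 0.33. Smad5, Bmpr1a, Smad1 and Bambi ranked from 7400 to 8202, and Id2 and Id4, both under that level, would have ranked 8181 and 8300. With 4 libraries many genes lie close to any profile, and these ranks are a description.

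Markers of other cell types also differed between the libraries numbered 1 and 2. The 10 mesoderm markers summed to 41.8 and 22.5 CPM in the controls and to 37.4 and 26.3 CPM after knockdown. Within each group library 1 was above library 2, as for Bmp4. The trophectoderm and primitive endoderm sums, given below, had the same order, whereas the neuroectoderm sum had the opposite one. The extremes of the sum lay in the controls, whereas those of Bmp4 lay in the knockdown libraries. Of the 10 markers, 6 were under 1 CPM in every library, among them T, Mixl1 and Mesp1, and none had 0 reads in all. The most abundant was Kdr, a receptor gene of vascular mesoderm, with 22.1 and 7.10 CPM in the controls and 19.8 and 12.4 CPM after knockdown. Trophectoderm markers (10) summed to 89.5 and 79.4 CPM in the controls and to 91.8 and 85.7 CPM after knockdown. Hand1 and Eomes are in this and the mesoderm list. Neuroectoderm markers (9) summed to 225.4 and 250.9 CPM in the controls and to 219.5 and 221.5 CPM after knockdown. None of either list was at 0 in all libraries. Of 7 neuroectoderm markers tested, 2 were higher and 2 lower at an unadjusted p under 0.05 (all tested genes: 6.18% and 5.43%). None was called by edgeR (lowest adjusted p = 0.085) or limma-voom, while DESeq2 called 2, as did edgeR with library size alone. The part of these markers in the values of the members was not tested.

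Among markers of primitive endoderm and of the stem cells themselves, some also differed between the groups, in both directions. The 12 primitive endoderm markers summed to 1376 and 1143 CPM in the controls and to 1790 and 1416 CPM after knockdown, with none at 0, and most of the sum came from laminin and collagen IV genes. In 9 of 12 each knockdown library was above each control, and in 1 below, beside the 22.3% and 21.3% given above for all tested genes. None was called by edgeR. At an unadjusted p under 0.05, 6 were higher and 1 was lower, beside 6.18% and 5.43% of all tested genes. The lower one, named after its value was seen, was Hnf4a. It had 9.49 and 5.03 CPM in the controls and 4.30 and 2.51 CPM after knockdown (-1.09 ± 0.40, edgeR adjusted p = 0.32). Named after their values were seen, the 2 that DESeq2 called were Pdgfra, a receptor gene, and Gata4, a transcription factor gene. Pdgfra had 18.2 and 20.4 CPM in the controls and 32.0 and 50.9 CPM after knockdown (1.10 ± 0.23, adjusted p = 0.093 by edgeR and 0.0039 by DESeq2). Gata4 had 12.8 and 21.9 CPM, against 30.3 and 36.6 CPM (0.94 ± 0.25, adjusted p = 0.18 by edgeR and 0.048 by DESeq2). Of the 9 stem cell markers, each knockdown library was above each control in 3 and below in 4. At an unadjusted p under 0.05, 1 was higher and 2 were lower, Nanog and Esrrb. The higher one was Dppa5a (0.40 ± 0.16, edgeR adjusted p = 0.35), and Esrrb had -0.35 ± 0.15 (0.37). The lowest p was that of Nanog, a pluripotency factor gene, with 215.8 and 227.8 CPM in the controls and 128.9 and 132.9 CPM after knockdown (-0.76 ± 0.14, adjusted p = 0.070 by edgeR and 0.00077 by DESeq2). With library size alone as the scale, edgeR also called Nanog (adjusted p = 0.045) and Pdgfra (0.046). By limma-voom no marker of either list was called. The shifts of these markers lie between the same groups as those of Id2, Id3 and Smad1, and their part in them was not tested.

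Around the members, 82 further genes of the pathway were listed by role, of which 81 were found in the files and 61 had enough reads to be tested. None of them was called, whether by edgeR, by DESeq2 or by limma-voom. With edgeR at an unadjusted p under 0.05, 4 were higher and 3 lower, shares near the background, and the median log2 fold change was -0.05. On the scale of library size alone these counts were 6 and 1, while those of all tested genes went from 816 and 717 to 1122 and 554.

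Other BMP-type ligands were scarce: 4 of 14 were tested and none had an unadjusted p under 0.05. Bmp8a was the most abundant of them at 2.13 CPM per kb. Bmp6 had 2.98 and 3.12 CPM in the controls and 3.85 and 5.99 CPM after knockdown (log2 fold change 0.69 ± 0.37, edgeR adjusted p = 0.50). All 10 other receptor and coreceptor genes were tested. Beside 5.43% of all tested genes, 1 was lower at an unadjusted p under 0.05. This was Eng, which encodes the coreceptor endoglin, with 83.2 and 97.5 CPM in the controls and 71.4 and 62.1 CPM after knockdown (-0.44 ± 0.16, adjusted p = 0.31). Bmpr1b, the other BMP type I receptor gene of its kind, stayed at or below 1.16 CPM.

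Of the remaining Smads of this branch, Smad7, an inhibitor like Smad6, was the most abundant at 51.5 CPM per kb. It had 258.1 and 248.9 CPM in the controls and 224 and 199.99 CPM after knockdown, without overlap (-0.26 ± 0.14, edgeR adjusted p = 0.50). Smad9 was scarce, at 0.144 CPM per kb and with overlapping groups.

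Of 17 genes for secreted BMP antagonists, 10 were tested. At an unadjusted p under 0.05, 2 were higher and 1 lower, beside 6.18% and 5.43% of all tested genes. On the scale of library size alone, 2 were higher and 0 lower. Bmper, whose product binds BMPs outside the cell, had 2.98 and 3.76 CPM in the controls and 5.69 and 8.87 CPM after knockdown (1.11 ± 0.35, edgeR adjusted p = 0.24). Dand5, a DAN-family antagonist gene, had 0.852 and 1.64 CPM against 2.55 and 3.34 CPM (1.23 ± 0.50, 0.36). The lower one, named after its value was seen, was Twsg1, a modulator of BMP availability, with 39.2 and 41.9 CPM against 29.8 and 31.96 CPM (-0.39 ± 0.17, 0.41). Gdf3, a TGF-beta family member reported to inhibit BMPs, was the most abundant at 51.5 CPM per kb and overlapped between groups (0.11 ± 0.17, 0.85).

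Of 20 intracellular regulators tested, 2 were higher at an unadjusted p under 0.05 and none was lower, beside 6.18% and 5.43% of all tested genes. Fkbp1a, whose product FKBP12 holds type I receptors inactive, had 273.9 and 303 CPM in the controls and 410.4 and 377.6 CPM after knockdown (0.45 ± 0.14, edgeR adjusted p = 0.24). Skil, the gene of the Smad corepressor SnoN, had 52.4 and 34.3 CPM against 60.3 and 62.9 CPM (0.51 ± 0.20, 0.35).

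Of 16 further transcripts known to respond to BMP in some tissue, 13 were tested and none had an unadjusted p under 0.05. Their median log2 fold change was -0.23, with 10 below 0 and 3 above, beside 6624 of all 13199 tested genes below 0. Some of the 10 were near 1 CPM or less, among them Msx1, Dlx3 and Nog, and others were abundant, among them Smad7 and Tbx3. Tbx3, named after its value was seen, had 341.9 and 378.5 CPM in the controls and 291.5 and 321.6 CPM after knockdown (-0.23 ± 0.14, edgeR adjusted p = 0.56). In 5 of the 13 each knockdown library was below each control, and in 1 above, beside 21.3% and 22.3% of all tested genes. On the scale of library size alone, 1 was higher at an unadjusted p under 0.05 and 0 lower. Dusp9, a phosphatase gene that BMP is reported to induce in embryonic stem cells, was the most abundant at 92.9 CPM per kb and differed little, at 242.9 and 249.8 CPM in the controls and 260.4 and 258.8 CPM after knockdown (0.08 ± 0.14, edgeR adjusted p = 0.88). Junb, an AP-1 transcription factor gene, overlapped between groups (0.40 ± 0.20, 0.49). The 3 class I bHLH genes whose products ID proteins bind were all tested. Tcf12 was lower at 21.6 and 19.8 CPM, against 26.7 and 29.6 CPM in the controls (-0.44 ± 0.19, edgeR unadjusted p = 0.040, adjusted p = 0.40). It was the 1 of 3 lower at an unadjusted p under 0.05, beside 5.43% of all tested genes. On the scale of library size alone, 1 of these genes was higher and 0 lower. Tcf4 (0.39 ± 0.21, 0.49) and Tcf3 (0.05 ± 0.16, 0.95), the most abundant at 38.9 CPM per kb, overlapped.

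In the activin and Nodal branch, which uses other Smads, 11 of 14 genes were tested, none was called by any of these tools, and 1 was higher and 3 lower at an unadjusted p under 0.05, beside 6.18% and 5.43% of all tested genes. On the scale of library size alone, 1 was higher and 0 lower. Foxh1, the DNA-binding partner of those Smads, had the lowest p (0.55 ± 0.18, edgeR adjusted p = 0.25), and Tgfbr2, a TGF-beta receptor gene, followed (-0.66 ± 0.28, 0.38). The others that were lower, named after their values were seen, were the receptor gene Acvr1b (-0.40 ± 0.17, edgeR adjusted p = 0.39) and the signal carrier Smad3 (-0.46 ± 0.21, 0.41). The most abundant, the Nodal coreceptor gene Tdgf1, had a log2 fold change of 0.003 ± 0.16 (0.997). A difference between this branch and the BMP members was not tested.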

How the data were processed

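The authors deposited raw read counts per gene symbol, 1 file a library, per the labels. Tools named in the submitters' processing notes are TopHat, HTSeq, SAMtools and bedtools, and the build is mm9. The sources used here give no version, annotation or strand setting. The closing tallies of each file, which name no gene, were left out of library sizes. Reads outside genes made up 6.39% to 7.61% of all tallied reads, and reads that overlapped more than 1 gene 0.459% to 0.600%. The share aligned more than once was lower in each knockdown library (1: 28.7%, 2: 26.1%) than in each control (1: 32.8%, 2: 30.2%). So was the share of Rn45s among reads in genes, with 12.3% (knockdown 1) and 11.0% (knockdown 2) against 17.5% (control 1) and 15.9% (control 2). With Rn45s and Lars2 left out, edgeR called 5 genes higher and 6 lower, the same counts as with them. Why these shares differed was not tested.

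The test was edgeR 4.0.16 under R 4.3.3 (filterByExpr with a minimum count of 10, TMM factors of 0.976, 0.987, 1.001 and 1.037, robust glmQLFit, glmQLFTest, with group alone in the design). It was two-sided, with Benjamini-Hochberg adjustment over all genes. Errors are SE in log2 and SD in CPM. Intervals are 95% and not adjusted. Depth was 16854403 to 22321102 reads in genes. The fit was tested on simulated data with larger changes than those of the members, and the outcome is not reported here. The biological coefficient of variation was 17.4%. Exon lengths came from GENCODE M21 (GRCm38, not the build of the files) by symbol, for 98.5% of symbols, and promoters from RefSeq tables of GRCm38.p6.

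Members and lists were chosen with earlier results of these data known. Named were all 10 members, Cyrano, in each pathway list the 2 genes with the lowest p and the most abundant gene, and the 5 genes most like Id1. The symbol Znf521, 1 of 21 regulators listed, is a human form and matched no row. DESeq2 1.42.0 and limma 3.58.1 were alternatives, with other factors, filters, left-out libraries, a replicate block, and an offset for length and GC content.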

Additional observations from a re-analysis of the deposited data

Results flagged for a closer look

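Reads that HTSeq could not give to a single gene, which no comparison above uses, made up a mean of 0.584% of tallied reads in the knockdown libraries and 0.486% in the controls, and both knockdown libraries lay above both controls. Of the members, Bmp4 alone overlapped, in current annotation, a gene that the files also list (Gm15217, at 0 reads in every library). How many of these reads came from the pair was not tested. Exons of Id4, Bmpr1a and Smad5 overlapped other annotated genes that the files do not list. Whether reads of those genes entered the counts of these members was not tested.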

How the results depend on the processing

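Under 16 alternatives no member passed the adjusted threshold in either direction, and the lowest adjusted p of any member was 0.0501, for Id3 with the replicate block and the offset for length and GC content. Of 160 values, 147 kept their direction. Id2, Id3, Id4 and Smad1 kept it in every alternative. For Bmp4 the log2 fold change turned to -0.015 by limma-voom, -0.019 with the replicate block, -0.032 with the offset for length and GC content and -0.067 with the replicate block and that offset. The other reversals came from leaving out 1 library: the range was -0.66 to 0.30 for Id1, -0.58 to 0.45 for Bmp4, -0.011 to 0.42 for Bmpr1a, -0.14 to 0.31 for Smad5, -0.71 to 0.094 for Smad6 and -0.12 to 0.56 for Bambi. For Id1 the sign turned without control 1 (0.026) and without knockdown 2, for Bmp4 without control 2 (-0.28) and knockdown 1, and for Smad5 without control 2 (-0.025) and knockdown 2. For Bmpr1a, Smad6 and Bambi it turned without knockdown 2. The cause was not tested. Where 1 library was left out, the lone library of a group was assumed to vary like the others.

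The replicate numbers do not show which cultures were handled together. Deviations of same-numbered libraries from their group means correlated at 0.244 across genes, and the replicate block called 504 genes higher and 451 lower, against 5 and 6 without it. With the block, Smad1 had an adjusted p of 0.053 and Id3 one of 0.13, while Id2 had an unadjusted p of 0.037 and an adjusted p of 0.21, against 0.080 and 0.49 without it. DESeq2 called 71 and 61 genes, limma-voom 6 and 5, edgeR with no filter 174 and 158, with library size only 32 and 18, with upper-quartile factors 10 and 16, with RLE factors or the CPM filter 2 and 4, without robust estimation 1 and 3, and with the offset 7 and 11. Without 1 library the counts ran from 0 to 60 higher and from 0 to 131 lower. DESeq2 gave Id4 no adjusted p. With library size only, none of the members had an unadjusted p under 0.05, and the median of all genes moved to 0.052. With the longest transcript as length, Smad1 stood above Smad5 and the other ranks were the same.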
